A study of Mus musculus with 7 samples.

Results

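The 55 genes described here encode developmental transcription factors outside the Hox clusters. They were chosen by name from the Pax, sine oculis, Sox, Gata, T-box, LIM homeobox, Dlx, Msx, Nkx2, forkhead, Meis, Irx, basic helix-loop-helix, Zic and Prrx families, by a rule that reads no measured value. The choice was nevertheless made with earlier results of these data known, so shares of the factors are descriptions of this list. All 55 were matched by Entrez identifier among the 27179 genes counted, and no filter on low counts was applied to them. RNA-seq counts came from 7 Eµ-Myc lymphoma cell lines, of which 3 were Smchd1 wild-type and 4 were Smchd1 null. Per the labels every line came from an end-stage tumour of a male C57BL/6 mouse that carried the Eµ-Myc transgene, in which an immunoglobulin heavy chain enhancer drives Myc in the B lineage, so the wild-type lines were also transformed cells. The labels call the null genotype a homozygous Smchd1 gene trap, whereas the methods of the study write the mutant allele as MD1. No ages were given and no source states whether lines came from separate mice, so p-values measure the spread between these lines only.

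Smchd1 encodes a chromatin protein of the structural maintenance of chromosomes family that takes part in gene silencing. The factors listed above are switched on in restricted domains of the embryo, where they set the identity of neural, muscle, gut, kidney, heart and limb precursors. In most other cells their promoters, which are often rich in CpG, are held silent, commonly by Polycomb proteins. Few of them have an established role in B cells, in contrast to their relative Pax5, which maintains B cell identity.

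Smchd1 itself had 900, 1404 and 1492 counts in wild-type replicates 1 to 3 and 175, 141, 185 and 216 counts in Smchd1 null replicates 1 to 4. The groups did not overlap, at 232 ± 14.9 CPM (counts scaled to the total of each library, SD, n = 3) against 26.5 ± 2.85 CPM (SD, n = 4), with a log2 fold change of -3.16 (limma FDR 2.18e-05). Total counts ran from 3626853 in wild-type replicate 1, the only single-end library and the only one of batch 1, to 7519549 in Smchd1 null replicate 4. Those 2 libraries lay farthest from their own groups. B cell markers were present in every library, but 12 of them added up to 1508 to 2745 CPM in 6 lines and to only 666 CPM in Smchd1 null replicate 4. That library also held the T cell and B-1 cell gene Cd5 at 55.7 CPM and the keratin gene Krt18 at 25 CPM, against at most 0.161 and 0.444 CPM in the other 6. Cd5 was the only 1 of 7 T cell markers at 1 CPM or more there, and their sum was 56.5 CPM. In all libraries 2 of these markers had 0 counts. Wild-type replicates 2 and 3 were far closer to each other than any other pair of a group, at a leading log2 fold change distance of 1.26 against 3.11 to 4.92, though their counts differed by more than sampling noise (chi-square per gene 3.96). Over all genes, limma called 1466 with all libraries and 1 with either of this pair left out.

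The most common state of the factors was silence in all lines. There were 26 of 55 (47.3%) with 0 counts in all 7 libraries, compared with 37.9% of all genes counted. A count of 0 allows a level of up to 0.827 CPM in wild-type replicate 1 and of 0.399 to 0.492 CPM in the other libraries, which covers counting error only. The silent genes were Pax1, Pax2, Pax3, Pax7 and Pax8, Sox7, Sox10, Sox11, Sox17 and Sox18, Tbx1 and Tbx3, Lhx1, Dlx5, Msx2, Nkx2-2, Nkx2-5, Foxa2, Irx1, Irx3, Neurod1, Hand1, Hand2, Twist1, Olig2 and Prrx1. They include the regulators of neural crest (Sox10), skeletal muscle precursors (Pax3 and Pax7), endothelium (Sox7, Sox17 and Sox18), heart (Nkx2-5, Hand1 and Hand2), oligodendrocytes (Olig2) and limb and facial mesenchyme (Twist1 and Prrx1). Of the 6 basic helix-loop-helix genes, 5 were silent and the other, Neurog2, had 2 counts in wild-type replicate 2 alone.

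A further 8 genes (14.5%, against 9.59% of all genes) had at least 1 count but no more than 2 in any library: Sox5, Sox6, Gata6, Tbx2, Tbx5, Lhx9, Msx1 and Neurog2. Another 8 (14.5%, against 4.6% of all genes) had 3 or more counts in some library but stayed under 1 CPM in all of them: Six2, Gata4, Lhx6, Lmx1b, Dlx1, Dlx2, Foxa1 and Irx5. Irx5, an Iroquois homeobox gene of heart and retina, alone passed the filter described below, at 0.551, 0.984 and 0.733 CPM in wild-type replicates 1 to 3 and 0.592, 0.321, 0.463 and 0.399 CPM in Smchd1 null replicates 1 to 4, and the groups overlapped. Levels this low rest on 2 to 6 counts per library, and no order between the groups can be read from them.

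A factor is called on in a library at 1 CPM or more. By this measure 13 of the 55 factors (23.6%) were on somewhere, compared with 47.9% of all genes. None of the factors was on in all 7 libraries, a state that 36.6% of all genes reached. Wild-type replicates 1 to 3 had 2, 5 and 5 factors on. Smchd1 null replicates 1, 2 and 3 had 7 each and replicate 4 had 12. The share of all genes at 1 CPM or more was nearly level across the same libraries, at 40.7% to 43%. The factors on in the wild-type lines were Six5, Lhx2, Foxd1, Meis2 and Zic2, and each of them was also on in at least 1 null line. The other 8, Pax6, Pax9, Six3, Sox2, Sox9, Meis1, Irx2 and Zic1, were on in null lines alone, and no factor was on in wild-type lines alone. Of all genes counted, 3.11% were on in some null line and no wild-type line, and 1.96% the other way round.

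**Figure D1:**
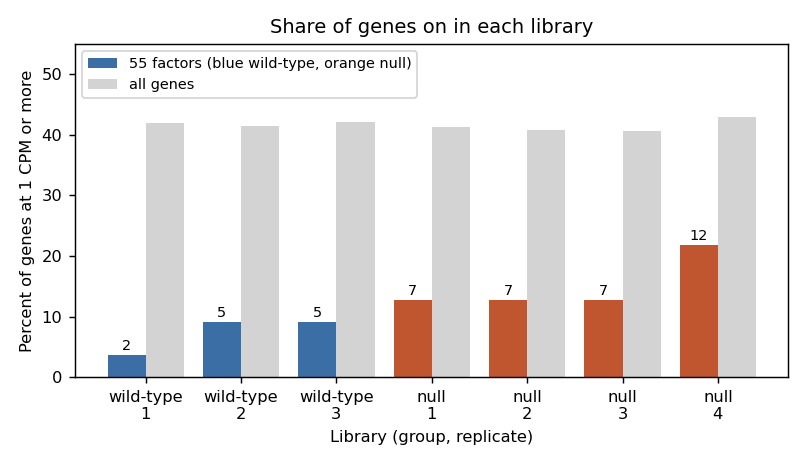
Percent of genes at 1 CPM or more in each library, for the 55 factors (blue wild-type, orange Smchd1 null, with the number of factors above each bar) and for all 27179 genes (grey). The null libraries had 7 to 12 factors on and the wild-type libraries 2 to 5, whereas the grey bars stayed between 40.7% and 43%.

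**Figure D2:**
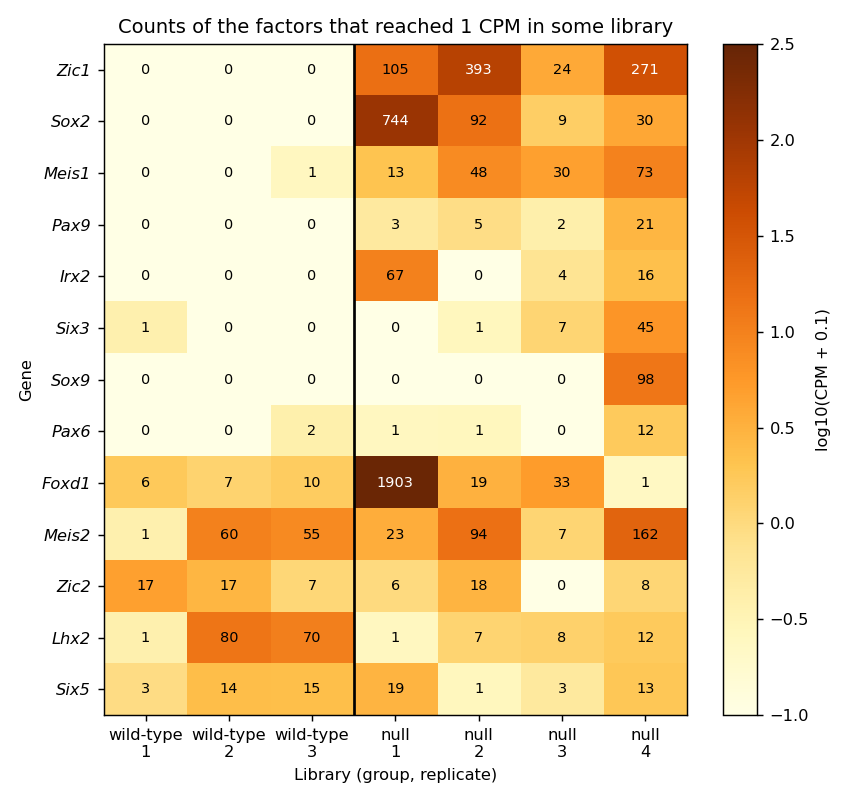
Counts of the 13 factors that reached 1 CPM in some library, with color giving log10(CPM + 0.1) and the black line dividing the 3 wild-type from the 4 Smchd1 null libraries. Zic1, Sox2 and Meis1 are filled across the null columns, while Sox9 and Foxd1 stand out in a single column.

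Sox2, Meis1 and Zic1 were on in every Smchd1 null line and in no wild-type line. Only 49 of the 27179 genes counted (0.18%) showed this pattern, so the factors held 3 of 49. The reverse pattern, on in every wild-type line and in no null line, was met by 0.155% of all genes and by none of the factors. The same 3 genes were found when any single library was left out, and when the pair of libraries farthest from their groups was left out. With on defined as 5 CPM or more none of the factors qualified, since each of the 3 had at least 1 null line below that level. Allowing any level, Pax9 also had all 4 null libraries above all wild-type libraries, which makes 4 of 55 factors against 3.06% of all genes. For Pax9 this order is not resolved at this depth. Smchd1 null replicates 1 to 3 lay under the 0.827 CPM that 0 counts in wild-type replicate 1 allow. No factor was lower in every null library than in every wild-type library.

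The promoters of the 3 genes on throughout the null lines are printed here because they share an expression pattern, with Foxd1, on at a high level in a single null line, and Hand2, silent in all 7 lines, for comparison. Each is the 250 bases before a RefSeq transcription start in build GRCm38.p6, read 5′ to 3′ on the strand of the gene. Capitals mark each CpG, the 2-base site that mammalian DNA methylation acts on and which reads the same on both strands.
Zic1, chr9:91365769-91366018, minus strand: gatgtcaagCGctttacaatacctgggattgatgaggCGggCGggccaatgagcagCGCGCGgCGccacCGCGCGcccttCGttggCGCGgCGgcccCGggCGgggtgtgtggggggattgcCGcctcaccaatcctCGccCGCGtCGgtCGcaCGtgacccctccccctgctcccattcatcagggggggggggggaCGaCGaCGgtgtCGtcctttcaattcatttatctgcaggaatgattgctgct
Sox2, chr3:34649745-34649994, plus strand: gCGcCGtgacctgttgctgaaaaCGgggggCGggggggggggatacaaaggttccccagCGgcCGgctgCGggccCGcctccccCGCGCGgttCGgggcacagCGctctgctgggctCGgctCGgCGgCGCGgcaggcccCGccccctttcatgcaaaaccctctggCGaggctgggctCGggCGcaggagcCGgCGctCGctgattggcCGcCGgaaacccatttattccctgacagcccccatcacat
Meis1, chr11:19018970-19019219, minus strand: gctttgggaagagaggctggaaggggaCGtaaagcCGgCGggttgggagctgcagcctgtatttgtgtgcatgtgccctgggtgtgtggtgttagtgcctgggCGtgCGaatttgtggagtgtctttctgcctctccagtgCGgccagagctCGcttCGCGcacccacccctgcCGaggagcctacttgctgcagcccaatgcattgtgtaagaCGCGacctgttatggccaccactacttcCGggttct
Foxd1, chr13:98353995-98354244, plus strand: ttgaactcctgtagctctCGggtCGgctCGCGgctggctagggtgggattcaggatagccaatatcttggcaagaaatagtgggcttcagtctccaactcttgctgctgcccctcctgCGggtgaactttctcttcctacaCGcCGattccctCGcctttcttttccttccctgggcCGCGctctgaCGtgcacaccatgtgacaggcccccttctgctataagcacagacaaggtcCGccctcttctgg
Hand2, chr8:57320733-57320982, plus strand: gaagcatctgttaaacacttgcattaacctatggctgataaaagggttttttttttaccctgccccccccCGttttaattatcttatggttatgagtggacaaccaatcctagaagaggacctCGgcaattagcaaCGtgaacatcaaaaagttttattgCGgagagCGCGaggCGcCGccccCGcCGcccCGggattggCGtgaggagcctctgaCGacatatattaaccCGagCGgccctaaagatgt

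These windows held 27 CpG for Zic1, 27 for Sox2, 13 for Meis1, 12 for Foxd1 and 15 for Hand2. GENCODE M21 places the start of Sox2 further downstream than RefSeq does. The Meis1 window lies inside the RefSeq span of the gene (chr11:18880428-19019651), so it is not the sequence before its outermost 5′ end. Among the factors that were on, this also holds for the windows of Pax9, Irx2, Six3 and Meis2. CpG values below therefore describe the windows used, which are not always those at the 5′ end of the gene. A RefSeq window was matched for 39 of the 55 factors, with the start listed first taken where there were several. Their median was 14 CpG, against 9 over 18458 genes of the table, and 69.2% of them had 10 or more CpG compared with 49.8% of those genes. Among the factors the median was 13 for the 11 that were on somewhere, 19 for the 11 with some counts but under 1 CPM, and 13 for the 17 with 0 counts in all libraries. The medians of the factors that were on and of those that were silent were equal, and the silent Hand2 lay above Meis1.

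**Figure D3:**
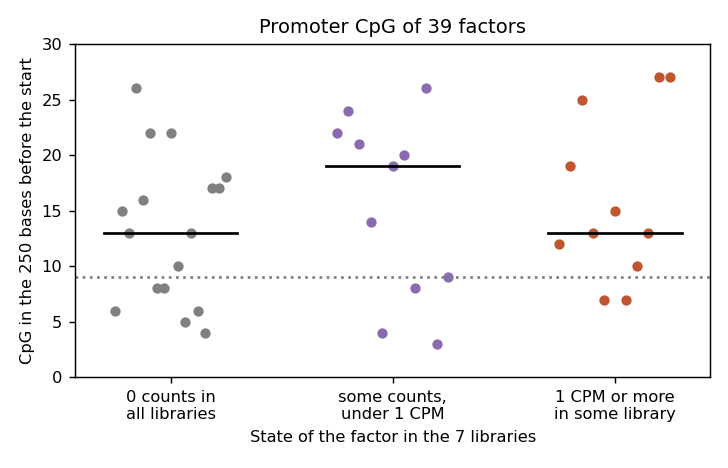
Number of CpG in the 250 bases before a RefSeq start of 39 factors, grouped by their state in the 7 libraries, with black bars for the medians (13, 19 and 13) and a dotted line for the median of all genes (9). The 3 groups cover much the same range, 4 to 26 for silent factors and 7 to 27 for those on.

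Zic1 encodes a zinc finger factor of the dorsal neural tube and cerebellum. It had 0 counts in all 3 wild-type libraries. Smchd1 null replicates 1 to 4 had 105, 393, 24 and 271 counts, or 15.5, 63.1, 3.71 and 36 CPM. Every null library was thus above every wild-type library, with a range among the null lines of over 10 times. With counts pooled over each group, and 3 counts allowed to the wild-type group, the null level was at least 162-fold higher. Without Smchd1 null replicate 2 it was at least 106-fold higher. This bound covers counting error only and is set mostly by the null lines with the most counts, so it does not hold for each line. Zic1 was called higher, at 8.09 on the log2 scale with a standard error of 2.17 (limma FDR 0.048, voom with sample weights), a size that reflects the small value voom puts in place of 0. The gene passed the filter of the fit through its null libraries alone and so could only differ upwards. Leaving out Smchd1 null replicate 4 gave a limma FDR of 0.0531 and leaving out wild-type replicate 1 gave 0.0678. Leaving out Smchd1 null replicate 1 gave 0.0674, wild-type replicate 2 gave 0.927 and wild-type replicate 3 gave 0.89.

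Zic4, the neighbor of Zic1 on chromosome 9, is its close relative and is transcribed from the opposite strand. It had 0 counts in the wild-type libraries and 14, 120, 6 and 49 counts in Smchd1 null replicates 1 to 4. The null lines took the same order for both genes, with replicate 2 highest and replicate 3 lowest. The genes share 60 exonic bases, 1.05% of those of Zic1. The next genes on each side, Gm5620 and Plscr5, were present in all 7 libraries and absent from all 7, respectively. The other pair of this family, Zic2 and Zic5 on chromosome 14, did not follow. Zic2, a factor of the early forebrain, had 17, 17 and 7 counts in wild-type replicates 1 to 3 and 6, 18, 0 and 8 in Smchd1 null replicates 1 to 4. The groups overlapped, with a log2 fold change of -1.07 (limma FDR 0.503).

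Sox2 encodes an HMG box factor that maintains pluripotent and neural stem cells. It too had 0 counts in each wild-type library. Smchd1 null replicate 1 had 744 counts (110 CPM), replicate 2 had 92 (14.8 CPM), replicate 3 had 9 (1.39 CPM) and replicate 4 had 30 (3.99 CPM). All null libraries lay above all wild-type libraries, but replicate 1 alone set most of the group mean of 32.6 ± 52.1 CPM (SD, n = 4). Sox2 lies inside the long non-coding gene Sox2ot, which had 2 counts in Smchd1 null replicate 1 and 0 in the other 6 libraries. Pooled over the null lines as for Zic1, the level was at least 179-fold higher than 3 counts over the wild-type group. Without Smchd1 null replicate 1 it was at least 35.7-fold higher. Smchd1 null replicate 3, at 1.39 CPM, lay much nearer to the 0.827 CPM that 0 counts in wild-type replicate 1 allow. The fitted difference was 7.50 on the log2 scale with a standard error of 2.71, and its limma FDR of 0.102 was not under 0.05. Sox2 also passed the filter through null libraries alone and could only differ upwards. Leaving out Smchd1 null replicate 1 lowered the fold change to 5.55 and the limma FDR to 0.0389. Sox2 was not called with any other single library left out, at a limma FDR of 0.959 without wild-type replicate 2, 0.932 without wild-type replicate 3 and 0.065 to 0.138 without the others.

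Meis1 encodes a TALE homeodomain partner of Hox proteins that is also active in blood stem cells. Wild-type replicates 1 and 2 had 0 counts and replicate 3 had 1. Smchd1 null replicates 1 to 4 had 13, 48, 30 and 73 counts, or 1.93, 7.71, 4.63 and 9.71 CPM. It was the most even of the 3 genes, and the groups did not overlap. The ratio of pooled counts was 101, with an exact 95% interval for counting error of 17.8 to 3998. Meis1 was called higher, at 5.23 on the log2 scale with a standard error of 0.813 (limma FDR 0.0122). Because only null libraries carried Meis1 past the filter of the fit, it could only differ upwards. The call held when wild-type replicate 1 or any null library was left out, with a largest limma FDR of 0.0235, and was lost without wild-type replicate 2 (limma FDR 0.862) or wild-type replicate 3 (0.807). Meis1 exons overlap GENCODE gene models on both strands (Gm16140 and Gm37818, 8.51% and 9.77% of its exonic bases), and the library kit does not mark strand, so reads within those bases cannot be assigned to Meis1 alone.

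**Figure D4:**
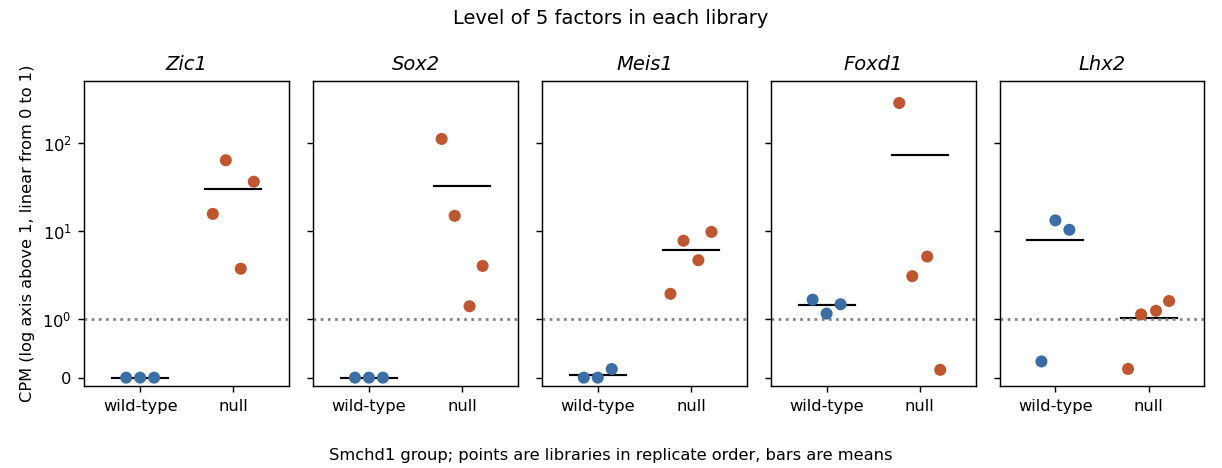
CPM of Zic1, Sox2, Meis1, Foxd1 and Lhx2 in each wild-type (blue) and Smchd1 null (orange) library in replicate order, with bars for group means and a dotted line at 1 CPM. The axis is linear from 0 to 1 and logarithmic above. The groups separate for Zic1, Sox2 and Meis1 and overlap for Foxd1 and Lhx2.

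The remaining factors that were on in null lines alone were uneven among those lines. Pax9, a factor of pharyngeal pouches, teeth and the axial skeleton, had 0 counts in the wild-type libraries and 3, 5, 2 and 21 counts in Smchd1 null replicates 1 to 4. The counts did not overlap, yet only replicate 4 reached 1 CPM, at 2.79 CPM, and Pax9 did not pass the filter of the fit. Replicates 1 to 3 were at 0.444, 0.803 and 0.309 CPM, under the 0.827 CPM that 0 counts in wild-type replicate 1 allow. Its neighbors Nkx2-9 and Slc25a21 had at most 1 count in any library. Irx2, an Iroquois homeobox gene, had 67, 0, 4 and 16 counts in Smchd1 null replicates 1 to 4 and 0 in all wild-type libraries. The groups overlapped at 0 through replicate 2, and the fitted difference of 3.06 on the log2 scale was not called (limma FDR 0.204). Irx1 and Irx4, on either side of Irx2 on chromosome 13, had 0 counts in all 7 libraries.

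Six3, a forebrain and eye factor, had 1, 0 and 0 counts in wild-type replicates 1 to 3 and 0, 1, 7 and 45 counts in Smchd1 null replicates 1 to 4. Its antisense partner Six3os1 had 4 counts in replicate 4, and Six2, the next gene along chromosome 17, had 0 there. Sox9, which directs cartilage, testis and several epithelial precursors, had 98 counts (13 CPM) in Smchd1 null replicate 4 and 0 in each of the other 6 libraries. Pax6, a factor of eye, brain and pancreas, had 12 counts (1.6 CPM) in replicate 4, and 0, 0, 2, 1, 1 and 0 in wild-type replicates 1 to 3 and Smchd1 null replicates 1 to 3. Replicate 4 was therefore the highest library for Pax6, Pax9, Six3, Sox9, Meis1 and Meis2. It was also the library with the low B cell markers and with Cd5 and Krt18, as given above. The 7 epithelial markers added up to 25.3 CPM there and to at most 2.93 CPM elsewhere, almost all of it Krt18, while 4 (Cdh1, Krt8, Krt5 and Krt14) had 0 counts in all libraries. The part of these differences in the levels of the factors was not tested. Without replicate 4 the number of factors on in any library fell from 13 to 10.

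Neural, endothelial and fibroblast markers were examined because many of the factors act in such cells. The 7 neural markers summed to 388.8, 42.8 and 46.5 CPM in wild-type replicates 1 to 3 and to 87.5, 256, 87.3 and 76.3 CPM in Smchd1 null replicates 1 to 4, and the groups overlapped. Most of this came from Tubb3, a beta-tubulin gene also expressed outside neurons, and from Nes at 223 CPM in wild-type replicate 1. The synaptic genes Snap25 and Syt1 had 0 counts throughout. The 8 endothelial markers added up to 223 CPM in Smchd1 null replicate 4 and to 47.7 to 96 CPM elsewhere. Of these Kdr, Tie1, Emcn and Vwf had 0 counts in all libraries, as did the fibroblast markers Pdgfra, Dcn and Lum. The highest fibroblast sum was 10.8 CPM in wild-type replicate 1, a line in which neither Twist1 nor Prrx1 had a count. In bulk libraries a lower level in all cells and fewer expressing cells cannot be told apart.

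Foxd1, a forkhead factor of kidney stroma and retina, was on at a low level in the wild-type lines, with 6, 7 and 10 counts (1.65, 1.15 and 1.47 CPM). Smchd1 null replicate 1 had 1903 counts, or 282 CPM. Replicates 2, 3 and 4 had 19, 33 and 1 counts, or 3.05, 5.1 and 0.133 CPM. The null lines thus lay on both sides of the wild-type lines, and the log2 fold change of 2.92 had a standard error of 2.19 (limma FDR 0.396). In TPM, which corrects the level for gene length, Foxd1 reached 217 TPM in Smchd1 null replicate 1 and Sox2 reached 85.1 TPM there, against 34.5 TPM for Zic1 in Smchd1 null replicate 2. Its neighbors Btf3 and Ankra2 were at 255 and 25.8 CPM in Smchd1 null replicate 1, below their levels of 320 and 34.4 CPM in replicate 4, where Foxd1 had 1 count.

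Lhx2 and Meis2 were both well above 1 CPM in wild-type replicates 2 and 3 and below it in wild-type replicate 1. Lhx2, a LIM homeodomain factor of forebrain, eye and hair follicle, had 1, 80 and 70 counts in wild-type replicates 1 to 3 and 1, 7, 8 and 12 in Smchd1 null replicates 1 to 4. Wild-type replicate 1 lay within the range of the null lines. The fitted difference was -3.82 on the log2 scale with all libraries (limma FDR 0.0608) and -3.93 without wild-type replicate 1 (limma FDR 0.0131), when only the closely alike wild-type replicates 2 and 3 stood for their group. After removal of both outlying libraries the limma FDR was 0.0408, in a fit that called 3.25% of all genes tested lower in null lines. Meis2, the paralog of Meis1, had 1, 60 and 55 counts in wild-type replicates 1 to 3 and 23, 94, 7 and 162 in Smchd1 null replicates 1 to 4. Meis2 was on in all 4 null lines, and replicates 2 and 4 lay above every wild-type line while replicates 1 and 3 lay below wild-type replicates 2 and 3. The groups overlapped, and the log2 fold change of -0.54 (limma FDR 0.678) was not separable from 0 and turned to 0.63 with voom alone.

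Six5, expressed more widely than the other factors and adjacent to the muscle kinase gene Dmpk, had 3, 14 and 15 counts in wild-type replicates 1 to 3. Smchd1 null replicates 1 to 4 had 19, 1, 3 and 13 counts, so null lines lay on both sides of the wild-type lines, and the log2 fold change was -1.74 (limma FDR 0.138).

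Across the whole table, voom with sample weights called 623 genes higher and 843 lower in null lines at an FDR under 0.05, or 5.06% and 6.85% of the 12303 genes tested. Of the 55 factors only 10 passed the filter of at least 0.5 CPM in 3 libraries. Meis1 and Zic1 were called higher, none was called lower (Lhx2 and Six5 had an unadjusted p under 0.05, and edgeR and DESeq2 also called 0 lower) and 8 were not called. Sox2, Meis1, Irx2 and Zic1 passed the filter through their null libraries alone and so could only differ upwards, for which reason the count of 2 in 10 is given as a description. Voom alone, block weights, sample removal and the quasi-likelihood test of edgeR called neither Zic1 nor Meis1. For Meis1 the limma FDR was 0.17, 0.0536 and 0.078 in the first 3 of these, and the edgeR FDR was 0.107. DESeq2 called Zic1, Sox2 and Meis1 higher, with adjusted p-values of 3.91e-08, 0.00126 and 0.000555, in a fit that called 1.56% of all genes higher. It gave no p-value for Foxd1 and no adjusted p-value for Irx5.

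**Figure D5:**
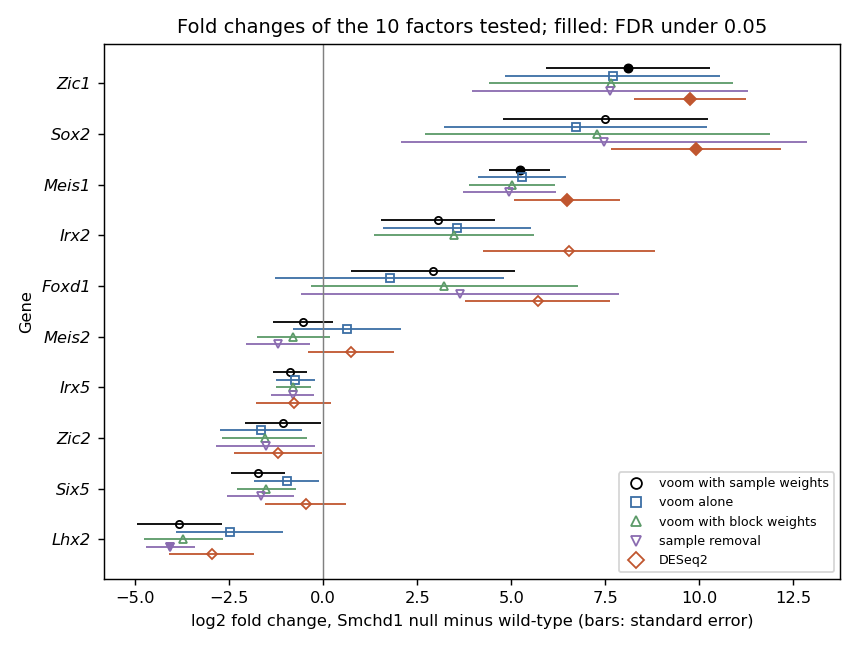
Log2 fold changes (Smchd1 null minus wild-type) with standard errors for the 10 factors that passed the filter, under 5 fits, filled where the FDR was under 0.05. Zic1, Sox2 and Meis1 lie to the right of 0 in each fit shown but are filled only in some, and Meis2 lies on both sides of 0. Irx2 did not pass the filter after sample removal.

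Relatives and partners of the factors were examined as 2 further lists. Of 65 other genes of the same families, 32 had 0 counts in all libraries, beside 37.9% of all genes counted, and 13 were tested. Isl1, Sox1 and Zic4 were called higher and Meis3 lower, beside 5.06% and 6.85% of all genes tested, and 9 were not called. The 3 called higher had 0 counts in every wild-type library, passed the filter through null libraries alone and could only differ upwards, so their number is given as a description. Isl1, a LIM homeodomain factor of motor neurons and heart precursors, had 0 counts in wild-type libraries and 37, 74, 62 and 53 in Smchd1 null replicates 1 to 4 (log2 fold change 6.78, limma FDR 0.00175). It was the only relative on in every null and no wild-type line. Sox1, a neural relative of Sox2, had 5, 9, 7 and 8 counts in the null libraries and 0 in the wild-type libraries, to be read against a floor of 3 counts, (log2 fold change 3.88, limma FDR 0.00737). Among the fits that left out a single library, the calls of Isl1 and Sox1 were lost without wild-type replicate 2 or wild-type replicate 3, at a limma FDR of 0.674 to 0.759, and held in the other 5. Sox1 was also not called with voom alone (limma FDR 0.129), edgeR (0.168) or DESeq2 (0.0593), and Isl1 was not called with edgeR (0.052). Zic4 had a log2 fold change of 5.95 (limma FDR 0.039). Its call was lost without wild-type replicate 2 or 3, and also without wild-type replicate 1 (0.0515) or Smchd1 null replicate 1 (0.0606). Zic4 was not called with voom alone (limma FDR 0.327), block weights (0.151), sample removal (0.2) or edgeR (0.246), whereas DESeq2 called it (adjusted p-value 0.000643). Meis3 fell, from 17.6, 8.86 and 7.33 CPM in wild-type replicates 1 to 3 to 4, 1.77, 1.85 and 5.85 CPM in Smchd1 null replicates 1 to 4 (log2 fold change -1.70, limma FDR 0.027). Without either wild-type replicate 2 or 3, or Smchd1 null replicate 1, 2 or 3, its limma FDR was 0.0566 to 0.758. Meis1 and Meis3 thus separated the groups in opposite directions, and Meis2 did not separate them. Pax5, Sox4, Sox12 and Meis3 were the relatives on in all 7 libraries. Pax5 was at 51.3 to 80.2 CPM in wild-type lines and at 64.9, 80.5, 85 and 16.6 CPM in Smchd1 null replicates 1 to 4.

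Of 32 genes for proteins that bind these factors, 17 were on in all 7 libraries, among them the Meis partners Pbx2 and Pbx3, the E proteins Tcf3, Tcf4 and Tcf12, and the LIM-domain binding gene Ldb1. None of the 21 tested was called higher by limma, edgeR or DESeq2, and 1 was called lower by limma, beside 5.06% and 6.85% of all genes tested. At an unadjusted limma p under 0.05 there were 3 higher and 5 lower. Ldb1, the adaptor that LIM homeodomain proteins such as Lhx2 and Isl1 require, was called lower, with 199, 301 and 358 CPM in wild-type replicates 1 to 3 and 215, 198, 210 and 208 CPM in Smchd1 null replicates 1 to 4. Wild-type replicate 1 lay within the range of the null lines, and the fitted difference of -0.64 on the log2 scale (limma FDR 0.0252) was no longer called without wild-type replicate 2 (0.927), wild-type replicate 3 (0.916), Smchd1 null replicate 1 (0.0753) or Smchd1 null replicate 2 (0.102).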

How the data were processed

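Total RNA of 3 wild-type and 4 Smchd1 null lymphoma lines was sequenced on a HiSeq instrument from TruSeq libraries, which do not mark strand. As stated in the labels and in the study, the authors aligned reads to mm10 with Subread and deposited raw counts per Entrez gene from featureCounts, with a gene length beside each count. Strand and multi-mapping options are not given in the sources used here. Symbols and coordinates came from RefSeq (GRCm38.p6, the same build as mm10) and overlaps from GENCODE M21. CPM and TPM were computed from the deposited counts, total counts and lengths.

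The whole table, less genes under 0.5 CPM in more than 4 libraries, was fitted in R 4.3.3 with edgeR 4.0.16 and limma 3.58.1, using TMM factors, voomWithQualityWeights (voom with sample weights), no covariate and the Benjamini-Hochberg FDR, called at 0.05. The filter and weighting follow the study. The fit was tested on simulated data with the same spread in every library and 200 genes of higher counts changed. That test does not cover outlying libraries or genes with 0 counts in a group. DESeq2 1.42.0 and the settings in the closing section were alternatives. The factors and lists were chosen with earlier results of these data known. Every factor is named. Values per library are given at 1 CPM or more, and genes of the other lists where called, beside some chosen after their values were seen (Pax5, neighbors). Replicate numbers 1 to 3 are shared by the groups, but the labels do not tie them to shared animals. The correlations of same-numbered deviations were -0.154, 0.224 and -0.206. These cannot decide whether the numbers pair the lines, because pairs with unlike numbers were not compared.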

Additional observations from a re-analysis of the deposited data

Results flagged for a closer look

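In the Smchd1 null group the CPM of 13 factors was screened for a library far from the other 3, by its gap to the nearest relative to the range of the group, and 4 were flagged. Chance flags about 1 in 20 such groups, and genes at or near 0 in most lines meet the screen easily.

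Foxd1 was at 281.8 CPM in Smchd1 null replicate 1, against 0.133 to 5.097 CPM in the others. Sox2 was at 110.2 CPM in the same library, against 1.39 to 14.78 CPM. Sox9 was at 13.03 CPM in Smchd1 null replicate 4 and had 0 counts in the other 3. Pax6 was at 1.596 CPM in replicate 4, against at most 0.1606 CPM. Any link of the Sox9 and Pax6 values to the low B cell markers of replicate 4 was not tested.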

How the results depend on the processing

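Leaving out any single library kept Sox2, Meis1 and Zic1 as the factors on in every null and no wild-type line (3), and so did thresholds of 3 counts and 0.5 CPM, but at 5 CPM the number was 0. The number of factors on anywhere (13) was 10 to 13 over single libraries left out and 21 at 3 counts. The number called higher (2) was 0 with voom alone, block weights, sample removal, edgeR, and wild-type replicates 2 and 3 summed, 1 with batch as a covariate, 4 without a filter and 0 to 2 over single libraries left out. The 4 called without a filter were Meis1, Zic1, Sox2 and Pax9 (limma FDR 0.0134 for Pax9, which reached 1 CPM in Smchd1 null replicate 4 alone). The number called lower (0) was 1, in each case Lhx2, with sample removal, no filter, batch as a covariate and the replicate block, and 0 to 1 over single libraries left out. With at least 10 counts required in every library no factor could be tested.

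The sign of Meis2 (-0.54) turned with voom alone (0.63), edgeR (0.72), DESeq2 (0.73), the replicate block (0.26) and the wild-type pair summed (0.75), with a range of -1.71 to 1.32 over single libraries left out. With replicate number as a block, which the labels do not tie to shared animals, the limma log2 fold change was 5.78 for Meis1 (FDR 0.0349), 8.42 for Zic1 (0.0304), 7.04 for Sox2 (0.0349) and -3.26 for Lhx2 (0.0349). The block left out Smchd1 null replicate 4, which has no partner, and moved the calls over all genes from 1466 to 223. Those calls numbered 12 with voom alone and with edgeR, 493 with block weights, 507 with sample removal, 382 with DESeq2, 1 with the wild-type pair summed, and 1 to 1641 over single libraries left out.

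Relatives called higher (3) numbered 1 with voom alone, 0 with edgeR, the 10-count filter and the pair summed, and 0 to 4 over single libraries left out. Relatives called lower (1) numbered 0 with voom alone, sample removal, edgeR, DESeq2 and the pair summed, 2 without a filter, and 0 to 1 over single libraries left out. Partners called higher (0) numbered 1 without a filter and 0 over single libraries left out. Partners called lower (1) numbered 0 with voom alone, block weights, edgeR, DESeq2, the replicate block and the pair summed, 2 with the 10-count filter, 3 with batch as a covariate, and 0 to 3 over single libraries left out. The causes of these shifts were not tested. Levels under 3 counts per library are not detectable at this depth.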
